A study of Homo sapiens with 8 samples.

Results

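Ubiquitin is attached to proteins by a relay of 3 kinds of enzyme. An E1 activates ubiquitin with ATP and passes it to the active-site cysteine of an E2, the ubiquitin-conjugating enzyme, and an E3 ligase then brings the loaded E2 to the substrate. The E2 often sets how many ubiquitins are attached and through which lysine they are linked. Lenalidomide acts on the last step, since it binds CRBN, the substrate receptor of the CRL4-CRBN ligase, and changes which proteins that ligase marks. The ligase draws on UBE2D3, which places the first ubiquitin, and on UBE2G1, which extends the chain.

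The RNA of these enzymes was followed in Hct116, an established human colorectal carcinoma cell line. A list of 33 genes was taken by gene symbol from the deposited table of 23459 genes. It held the 2 ubiquitin E1 enzymes, UBA1 and UBA6, and 31 E2 enzymes, with CDC34 and the giant protein BIRC6 among them and without UBE2M and UBE2F, the E2 enzymes of the ubiquitin-like protein NEDD8. All 33 had a row and all 33 passed the filter on low counts. There were 4 libraries from cells given DMSO, the solvent of the drug, and 4 from cells given 30 μM lenalidomide, both for 16 h. Per the study's methods, drug or solvent was given together with a change to isotope-labelled (SILAC) medium, and the cultures were then divided between mass spectrometry and RNA sequencing, so that all 8 libraries shared this change of medium. In some replicates the isotopes were swapped, and the labels do not say in which. No genetic change is given for either group. The labels gave no batch, and p-values measure only the spread between these libraries, since the study's text calls the replicates technical in one place and biological in another.

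Library totals were between 28218471 and 37473413 counts, and all 4 lenalidomide libraries were smaller than all 4 DMSO libraries. The 33 genes together took between 0.365% and 0.387% of the counts of a library. Epithelial markers were present, with EPCAM at 589.7 ± 32.7 CPM and KRT8 at 473.1 ± 27.8 CPM in DMSO (SD, n = 4), while the leukocyte marker PTPRC had at most 0.208 CPM in any library and CD3E was at 0 in DMSO. PTPRC averaged 0.0276 CPM in DMSO and 0.152 CPM with lenalidomide, from 23 counts in all 8 libraries. CPM are counts divided by the library size after TMM scaling. For levels compared between genes, CPM were divided by the exonic width of the gene in kilobases.

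The 4 UBE2D genes make nearly interchangeable E2 enzymes, and they are shown here around the active site because their levels are compared below and because UBE2D2 and UBE2D3 are alike over a stretch long enough to share reads. Each line gives 60 coding bases, 5′ to 3′. The first capitals are the codons of the His-Pro-Asn motif of E2 enzymes. They were found as the codons CAN, CCN and AAN in a row, in frame on the coding strand. That pattern also admits Gln in place of His and Lys in place of Asn. The last capitals are the codon of the active-site cysteine, 10 codons on. UBE2G1, which works with the same ligase, CDC34 and UBE2R2, which extend chains for cullin ligases, and UBE2C, which starts chains for the anaphase-promoting complex, are shown for contrast.
UBE2D3: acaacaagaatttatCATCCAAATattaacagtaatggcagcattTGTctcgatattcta
UBE2D2: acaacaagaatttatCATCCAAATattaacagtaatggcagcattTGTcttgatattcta
UBE2D1: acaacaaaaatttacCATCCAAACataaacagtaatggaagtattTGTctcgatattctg
UBE2D4: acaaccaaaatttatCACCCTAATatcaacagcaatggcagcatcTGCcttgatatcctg
UBE2G1: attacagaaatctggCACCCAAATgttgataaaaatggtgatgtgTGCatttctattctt
CDC34: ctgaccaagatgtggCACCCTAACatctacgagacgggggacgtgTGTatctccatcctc
UBE2R2: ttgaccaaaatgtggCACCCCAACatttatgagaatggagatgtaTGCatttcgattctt
UBE2C: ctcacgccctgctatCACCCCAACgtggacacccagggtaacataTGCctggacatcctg

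On GRCh37 the UBE2D3 stretch lies at chr4:103722648-103722707 on the minus strand, inside 1 coding exon. Those of UBE2D2 (chr5:138994455-138994514), UBE2D1 (chr10:60124540-60124599), UBE2D4 (chr7:43988240-43988299) and UBE2C (chr20:44444258-44444317) are on the plus strand, each also within 1 coding exon. The stretches of UBE2G1 (chr17:4192669-4200036, minus strand), CDC34 (chr19:535891-536269, plus strand) and UBE2R2 (chr9:33886933-33900198, plus strand) each cross 1 intron. Against UBE2D3, the stretch of UBE2D2 differed at 1 base, that of UBE2D1 at 7, that of UBE2D4 at 11 and that of UBE2G1 at 25. Over the whole coding sequence UBE2D2 and UBE2D3 were 86.6% identical and shared a run of 80 bases, so that reads inside that run could have come from either gene. No other pair of paralogs compared here shared a run over 28 bases. The pattern CAN, CCN and AAN, which is looser than His-Pro-Asn, was searched with a cysteine codon at this spacing. Both were found in 16 of the 31 E2 genes (51.6%) and in 0.68% of 19420 canonical protein-coding transcripts of GENCODE. UBE2V1 and UBE2V2, which are known to lack the active-site cysteine, were among the genes without both. So were UBE2H, UBE2K, UBE2Z and other working E2 enzymes, so that lacking this pattern is no sign of an inactive enzyme.

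In DMSO, UBE2D3 had the highest level of the 33 genes, at 129.4 ± 5.03 CPM per kilobase (SD, n = 4), above 96.7% of all genes tested. UBE2S, which adds K11-linked ubiquitin for the anaphase-promoting complex, followed at 95.2 ± 13.4 CPM per kilobase. UBE2T, the E2 of the Fanconi anaemia pathway, had 87.4 ± 5.80 CPM per kilobase. The lowest were UBE2L6, the E2 of the ubiquitin-like protein ISG15, at 5.44 ± 0.369, UBE2D4 at 3.88 ± 0.147 and UBE2E2 at 3.83 ± 0.533 CPM per kilobase. The span from highest to lowest was 33.8-fold. Of the 33 genes, 29 were above the median level of all genes tested. UBE2D3 stood clear of the gene below it in every DMSO library, whereas 25 of the 32 neighbouring pairs in the order overlapped in their DMSO values and were not separated beyond their spread.

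**Figure D1:**
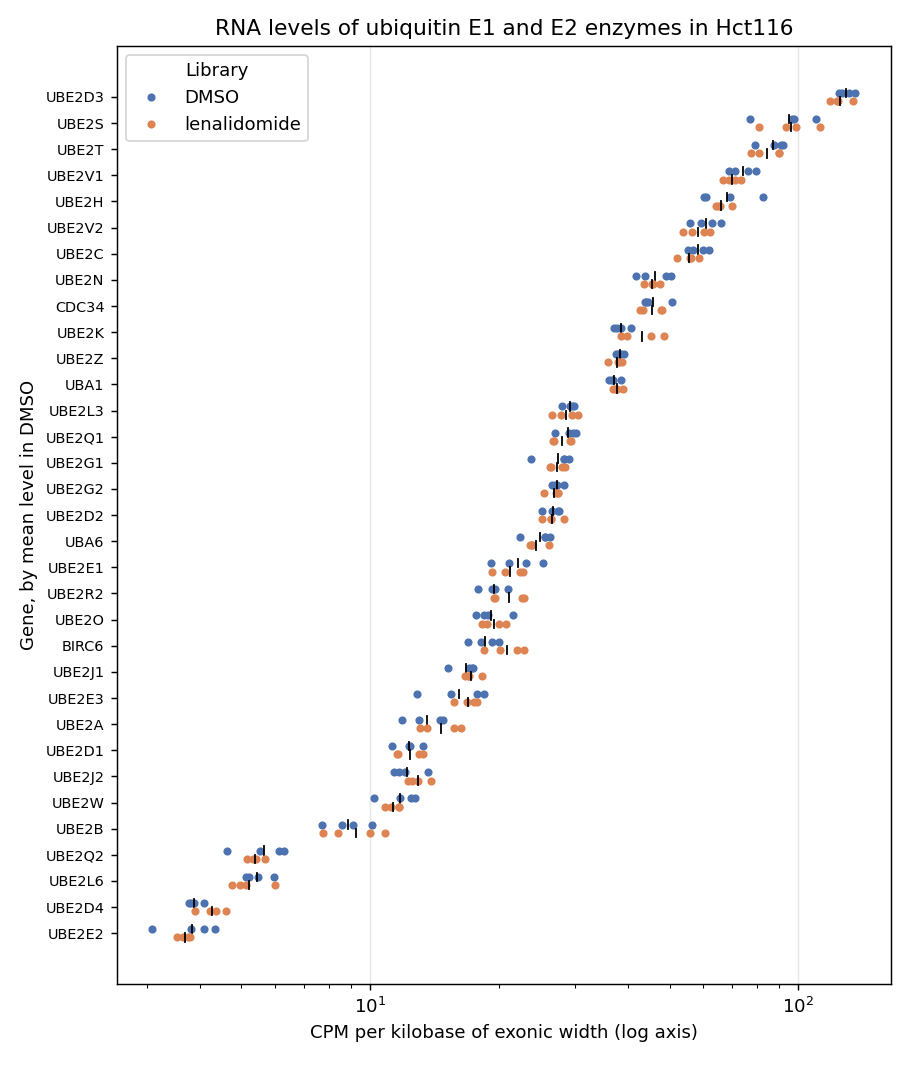
Level of each of the 33 genes in CPM per kilobase of exonic width on a log axis, ordered by the mean in DMSO, with 1 point per library, DMSO in blue and lenalidomide in orange, and a black bar at the mean of each group. UBE2D3 lies near 129.4 and UBE2E2 near 3.83, and for every gene the points of both treatments overlap.

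As shares of the level summed over the 31 E2 genes, UBE2D3 took 12.1% ± 0.628 in DMSO (SD, n = 4) and 11.8% ± 0.660 with lenalidomide. The 7 highest E2 genes, UBE2D3, UBE2S, UBE2T, UBE2V1, UBE2H, UBE2V2 and UBE2C, together took 53.5% of it in DMSO. The share of UBE2V1, 6.92%, cannot be read as that gene alone, because of a readthrough gene described below. UBE2H, the E2 of the CTLH ligase, took 6.37% ± 1.10. The order below UBE2D3, and with it the 7 highest genes and their share, depended on the length used. With the longest annotated transcript of each gene in place of the exonic width, UBE2V2 went from rank 6 to rank 17, UBE2N from rank 8 to rank 16, UBE2S from rank 2 to rank 7 and UBE2C from rank 7 to rank 2. Without any division by length, UBE2S was at rank 11 and UBE2T at rank 18, while UBE2H was at rank 2 and BIRC6 at rank 3. UBE2D3 was first by all 3 measures, with 10.4% by the longest transcript and 13.3% without division by length.

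The E1 step is served by UBA1, which charges nearly all E2 enzymes, and by UBA6, which charges a smaller set and is the only E1 for UBE2Z. UBA1 had 176.4, 177.6, 173.8 and 185.4 CPM in DMSO replicates 1 to 4 and 177.5, 179.0, 181.0 and 187.3 CPM with lenalidomide. These values overlapped, with DMSO replicate 4 above all but 1 lenalidomide library. UBA6 had 224.3, 224.7, 196.4 and 230.4 CPM in DMSO and 209.2, 207.2, 229.5 and 209.3 CPM with lenalidomide. The lowest value of UBA6 was DMSO replicate 3 and its highest DMSO replicate 4, so that the lenalidomide libraries lay inside the range of DMSO. The log2 fold change was 0.023 for UBA1 (95% interval -0.081 to 0.13) and -0.034 for UBA6 (95% interval -0.17 to 0.097). Per kilobase UBA1 was 1.52-fold above UBA6 and higher in 8 of 8 libraries (two-sided exact sign-flip test, p = 0.00781, the smallest that 8 libraries allow, adjusted p = 0.00837 over 15 pairs). That order rests on the division by length, since without it UBA6 was the higher in DMSO, at a mean of 219.0 CPM against 178.3 CPM. With the longest annotated transcript the log2 ratio of UBA1 to UBA6 went from 0.60 to 1.15.

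None of the 33 enzymes passed an adjusted p of 0.05 with lenalidomide by edgeR's quasi-likelihood test, in which 2 of 13925 genes passed, 0.0144%. The smallest adjusted p of the 33 was 0.999. By the unadjusted p of that test, 2 of the 33 were under 0.05 (6.06%) against 4.18% of all genes tested, both of them higher. By DESeq2 the count was also 2 of the 33, beside 478 of all 13925 genes. For 0 of the 33 did the lenalidomide values lie wholly above or below the DMSO values, against 2.08% of all genes (1.24% above and 0.84% below). Log2 fold changes were above 0 for 13 of the 33, where 51.3% of all genes were. They ran from -0.079 for UBE2V1 to 0.17 for BIRC6, with a median of -0.021 beside 0.0025 for all genes. They were below 0.1 in size for 28 of the 33 (84.8%), against 71.9% of all genes. The 95% interval lay within 0.25 of 0 on the log2 scale for 23 of the 33 (69.7%), against 56.3% of all genes. Its half-width had a median of 0.14, beside 0.17 for all genes. The shares over all genes were not matched for level, and 29 of the 33 were above the median level of all genes tested. The widest reach of any interval was 0.33, at the upper end for BIRC6.

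**Figure D2:**
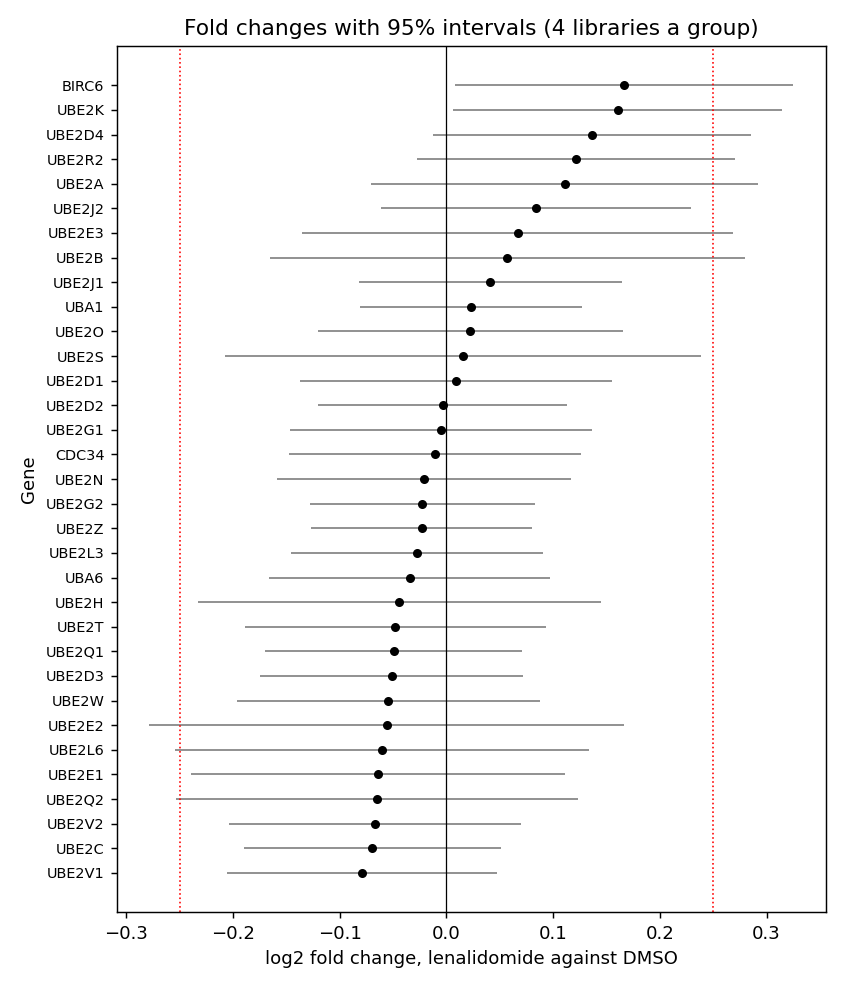
Log2 fold change of each of the 33 genes, lenalidomide against DMSO, from edgeR's quasi-likelihood fit with 4 libraries a group, as points with 95% intervals. The dotted red lines are at -0.25 and 0.25, and the intervals of BIRC6 and UBE2K alone leave out 0.

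For the E2 enzymes of CRL4-CRBN the intervals below bound the fold change only as far as the spread between these libraries goes. UBE2D3 had 435.6, 452.1, 468.9 and 430.6 CPM in DMSO replicates 1 to 4 and 425.2, 464.3, 426.2 and 409.0 CPM with lenalidomide. DMSO replicate 3 was the highest and lenalidomide replicate 4 the lowest, and the groups overlapped (two-sided exact permutation test, p = 0.314, where 4 against 4 allows 0.0286 at the least). Its log2 fold change was -0.051 (95% interval -0.17 to 0.071), which as a ratio is between 0.886 and 1.05. UBE2G1 had 122.7, 119.4, 99.6 and 119.3 CPM in DMSO and 111.1, 110.7, 117.7 and 119.8 CPM with lenalidomide. The low value of DMSO replicate 3 lay apart from the other DMSO libraries, and all 4 lenalidomide values fell between it and the rest or within them (exact permutation p = 0.943). The log2 fold change of UBE2G1 was -0.0053 (95% interval -0.15 to 0.14), a ratio between 0.903 and 1.10. Without DMSO replicate 3 it was -0.073. Per kilobase UBE2D3 was 4.65-fold above UBE2G1, in 8 of 8 libraries.

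The UBE2D enzymes divided their summed level unevenly. In DMSO UBE2D3 held 75.1% ± 1.31 of it, UBE2D2 15.5% ± 0.869, UBE2D1 7.14% ± 0.523 and UBE2D4 2.25% ± 0.0668 (SD, n = 4). With lenalidomide the shares were 74.3%, 15.8%, 7.35% and 2.54%. The order held in all 8 libraries, with UBE2D3 4.77-fold above UBE2D2, 10.3-fold above UBE2D1 and 31.2-fold above UBE2D4 (exact sign-flip test, adjusted p = 0.00837 for each). Reads shared between UBE2D2 and UBE2D3, which have the run of 80 identical bases, could move the ratio between them. The length used moved the ratios too, while the order stayed. By exonic width the log2 ratios to UBE2D3 were -2.25 for UBE2D2, -3.37 for UBE2D1 and -4.96 for UBE2D4. With the longest annotated transcript they were -1.80, -3.08 and -4.69.

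UBE2D4, the lowest of the 4, had 15.4, 15.1, 16.3 and 15 CPM in DMSO replicates 1 to 4 and 16.8, 18.3, 15.5 and 17.4 CPM with lenalidomide. DMSO replicate 3 lay above lenalidomide replicate 3, and otherwise the lenalidomide libraries were higher (log2 fold change 0.14, 95% interval -0.013 to 0.29, exact permutation p = 0.0571). Set against UBE2D3 in the same library, the separation was complete. Such a ratio does not depend on the scaling of libraries, but it also carries the changes of UBE2D3. UBE2D3 had a log2 fold change of -0.051 and its highest value, 468.9 CPM, in DMSO replicate 3, against 426.2 CPM in lenalidomide replicate 3. The part of UBE2D3 in the separation was not tested. The log2 ratio of UBE2D4 to UBE2D3 per kilobase was -5.03, -5.10, -5.05 and -5.05 in DMSO and -4.87, -4.87, -4.98 and -4.76 with lenalidomide. All 4 lenalidomide ratios were above all 4 DMSO ratios, a difference of 0.19 on the log2 scale (two-sided exact permutation test, p = 0.0286, the smallest that 4 against 4 allows, adjusted p = 0.429 over 15 pairs). The difference did not pass the correction, but a single pair at the smallest exact p cannot pass it over 15 pairs. Exons of UBE2D4 overlap those of POLR2J4 on the opposite strand by 729 bases, and POLR2J4 had from 205% to 241.5% of the counts of UBE2D4 and a log2 fold change of 0.040. Whether reads of POLR2J4 entered the count of UBE2D4 was not tested.

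**Figure D3:**
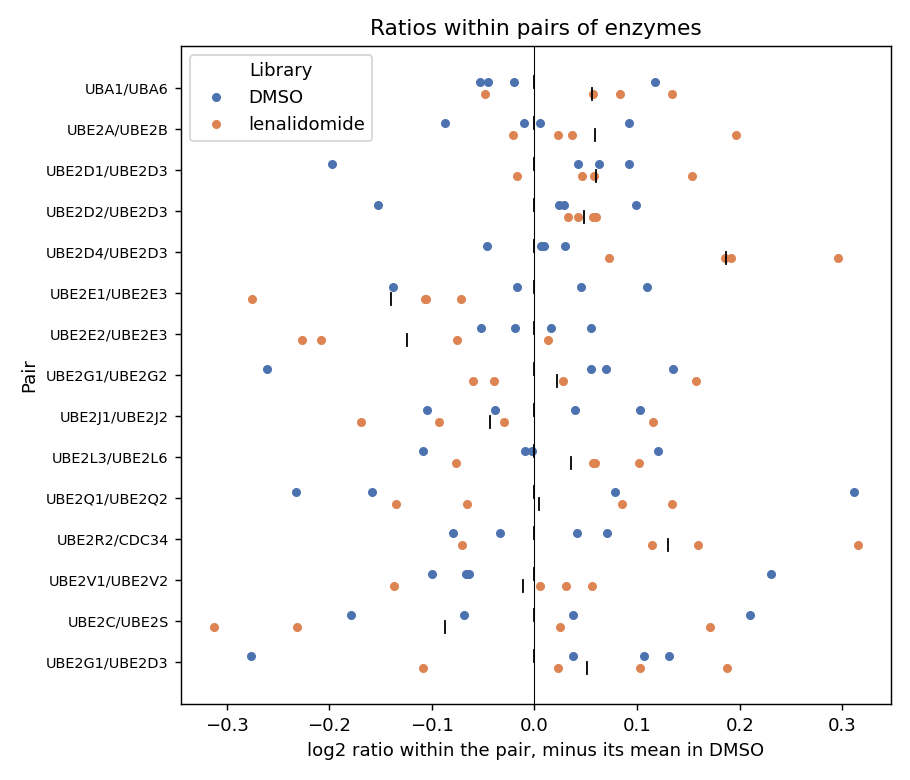
Log2 ratio of the counts within each of 15 pairs of enzymes, minus the mean of that pair in DMSO, with 1 point per library, DMSO in blue and lenalidomide in orange, and a black bar at each mean. UBE2D4/UBE2D3 is the pair in which the colours part, with a mean difference of 0.19.

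For the other 14 pairs the ratio differed by at most 0.14 in size on the log2 scale between treatments, with adjusted p from 0.571 to 0.971 by the exact permutation test. The pair with the 0.14 difference was UBE2E1 and UBE2E3, whose ratio was lower with lenalidomide. Per kilobase of exonic width, the same gene of a pair was higher in 8 of 8 libraries in 14 of the 15 pairs. The sign-flip test of these levels measures the spread between libraries and takes no account of the length used. With the longest annotated transcript the order of UBE2C and UBE2S reversed. UBE2A was 1.56-fold above UBE2B, its partner among the RAD6-type enzymes that monoubiquitinate histone H2B and PCNA. UBE2L3, which serves HOIP and other ligases that hold ubiquitin on their own cysteine, was 5.44-fold above UBE2L6. CDC34 was 2.25-fold above UBE2R2 (exact sign-flip test, adjusted p = 0.00837 for each of these). NKRF, whose exons overlap those of UBE2A on the opposite strand, had from 110.2% to 143.2% of the counts of UBE2A. Whether reads of NKRF entered the count of UBE2A, and so its ratio to UBE2B, was not tested. UBE2G1 and UBE2G2, the latter an E2 of degradation from the endoplasmic reticulum, did not part, with a log2 ratio of 0.013 ± 0.133 (SD, n = 8) and UBE2G1 the higher in 5 of 8 libraries (exact p = 0.789).

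UBE2C and UBE2S work in turn on the anaphase-promoting complex and, with UBE2T, are known for high levels in dividing cells. UBE2C had 90.8, 98.9, 88.2 and 95.8 CPM in DMSO replicates 1 to 4 and 93.8, 90.0, 89.2 and 83.2 CPM with lenalidomide. UBE2S had 114.8, 116.2, 92.0 and 130.8 CPM in DMSO and 111.2, 96.3, 133.5 and 117.7 CPM with lenalidomide. UBE2T had 79.4, 83.5, 71.9 and 82.6 CPM in DMSO and 73.5, 81.7, 81.6 and 70.2 CPM with lenalidomide. In all 3 genes the treatments overlapped and the spread lay between libraries of one treatment, most of all in UBE2S, with a coefficient of variation of 14.1% in DMSO. Their log2 fold changes were -0.070 for UBE2C, 0.015 for UBE2S and -0.048 for UBE2T, each with a 95% interval that held 0. Of 8 cell division markers, 0 passed the adjusted threshold, with a median log2 fold change of -0.0048, and MKI67 had the smallest p of them (log2 fold change 0.19, unadjusted p = 0.0419 and adjusted p = 0.999 by edgeR's test).

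UBE2K and UBE2R2 are known as builders of K48-linked chains, the kind that marks proteins for the proteasome. UBE2K had 194.6, 197.1, 201.7 and 213.4 CPM in DMSO replicates 1 to 4 and 201.5, 208.6, 254.3 and 237.4 CPM with lenalidomide. Lenalidomide replicates 3 and 4 were above all DMSO libraries, and replicates 1 and 2 were among them. The log2 fold change of UBE2K was 0.16 (95% interval 0.0065 to 0.31, unadjusted p = 0.0422 and adjusted p = 0.999 by edgeR's test, exact permutation p = 0.171). It was 0.097 without lenalidomide replicate 3, and the unadjusted p was under 0.05 in 3 of the 8 fits that left out a library. UBE2R2 had 85.8, 79.6, 93.6 and 87.1 CPM in DMSO and 87.1, 86.4, 102.0 and 101.0 CPM with lenalidomide. Here too lenalidomide replicates 3 and 4 alone exceeded every DMSO value (log2 fold change 0.12, 95% interval -0.027 to 0.27, exact permutation p = 0.171). CDC34, the paralog of UBE2R2, had a log2 fold change of -0.011.

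BIRC6, an inhibitor of apoptosis proteins that joins E2 and E3 activity in one chain, had 285.2, 266.2, 301.3 and 313.6 CPM in DMSO replicates 1 to 4 and 314.9, 288.9, 346.4 and 359.0 CPM with lenalidomide. Of the lenalidomide libraries 3 were above all DMSO libraries and replicate 2 was below 2 of them. Its log2 fold change was 0.17 (95% interval 0.0082 to 0.33, unadjusted p = 0.0406 and adjusted p = 0.999 by edgeR's test, exact permutation p = 0.114). With a library left out it ran from 0.12 to 0.22, and the unadjusted p was under 0.05 in 4 of those 8 fits. BIRC6 has an exonic width of 15702 bases, the greatest of the 33 genes and the only one over 10 kb. Among all genes tested, the 699 over 10 kb had a median log2 fold change of 0.073, and 12.2% of them were higher at an unadjusted p under 0.05 while 0 were lower, against 3.26% higher and 0.919% lower over all genes. Lenalidomide replicate 4 was the library in which those 699 genes stood highest, with a median of 0.15 above their mean over all libraries on the log2 scale, and it was also the highest library for BIRC6. UBE2W (9088 bases) and UBA6 (8771 bases), the next in width, had log2 fold changes of -0.054 and -0.034. The part of width in the value of BIRC6 was not tested.

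**Figure D4:**
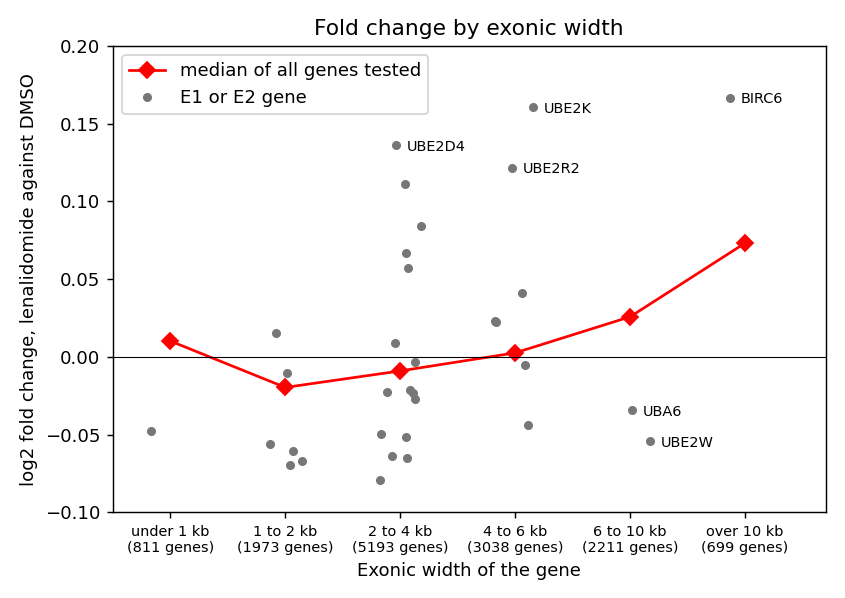
Log2 fold change with lenalidomide by exonic width in 6 classes, with the 33 genes as grey points, spread sideways within a class for legibility, and the median of all genes tested as red diamonds. The median rises to 0.073 over 10 kb, the class that holds BIRC6.

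UBE2N makes K63-linked chains together with the inactive partners UBE2V1 and UBE2V2, in signalling and in the response to DNA damage. UBE2V1 had 251.7, 234.8, 262.8 and 227.5 CPM in DMSO replicates 1 to 4 and 234.7, 242.8, 226.7 and 220.4 CPM with lenalidomide, with overlap and with the lowest log2 fold change of the 33 (-0.079, 95% interval -0.21 to 0.047, exact permutation p = 0.200). The count of UBE2V1 cannot be read as that gene alone. The table also lists the readthrough gene TMEM189-UBE2V1, which runs through both genes on the same strand, with from 90.3% to 93.8% of the counts of UBE2V1 in the 8 libraries and a log2 fold change of -0.092. UBE2V2 had a log2 fold change of -0.067 and UBE2N of -0.021, and both intervals held 0. UBE2N exons overlap NUDT4 on the opposite strand by 2474 bases in GENCODE, as do those of UBE2A with NKRF by 956 and those of UBE2E1 with NKIRAS1 by 1132, and reads of these neighbours cannot be told apart without strand.

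UBE2L6 and UBE2E2 were among the lowest in level. UBE2L6 had 10.4, 9.55, 9.09 and 8.92 CPM in DMSO replicates 1 to 4 and 8.66, 10.4, 8.94 and 8.29 CPM with lenalidomide, a log2 fold change of -0.061 (95% interval -0.25 to 0.13). UBE2E2 had 7.09, 7.59, 5.76 and 8.05 CPM in DMSO and 7.07, 7.0, 6.78 and 6.59 CPM with lenalidomide, a log2 fold change of -0.056 (95% interval -0.28 to 0.17). In both genes the treatments overlapped, and in UBE2E2 the lenalidomide libraries all lay inside the DMSO range.

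The remaining genes had log2 fold changes between -0.065 and 0.11, each with an interval that held 0. At the ends of that range were UBE2Q2 at -0.065 and UBE2A at 0.11. Of the enzymes of endoplasmic reticulum degradation, UBE2J1 had 0.041, UBE2J2 0.084 and UBE2G2 -0.022. UBE2Z, the E2 charged by UBA6, varied least between DMSO libraries, with a coefficient of variation of 2.0%, and had a log2 fold change of -0.023. UBE2E3 and UBE2H varied most, with coefficients of 15.7% and 15.5%. The median coefficient was 6.98% over the 33 genes and 7.25% over all genes tested.

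DMSO replicate 3 was often at the edge of its group. It was the lowest of the 4 DMSO libraries for 20 of the 33 genes (60.6%), against 33.8% of all genes tested. It was the highest for 8 of the 33 (24.2%), against 31.5% of all genes tested. UBE2E3 had 26.5 CPM there against 31.8 to 38.0 CPM in the other DMSO libraries, whereas UBE2H had 427.0 CPM there against 309.9 to 356.7 CPM. Left out, it raised the number of the 33 genes with an unadjusted p under 0.05 from 2 to 5, which were UBE2R2, BIRC6, UBE2W, UBE2Q2 and UBE2D4, while that number over all genes went from 582 to 844. The number was 0 without DMSO replicate 1, where it was 359 over all genes, and 0 without lenalidomide replicate 4, where it was 306 over all genes. With any library left out, 0 of the 33 passed the adjusted threshold.

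**Figure D5:**
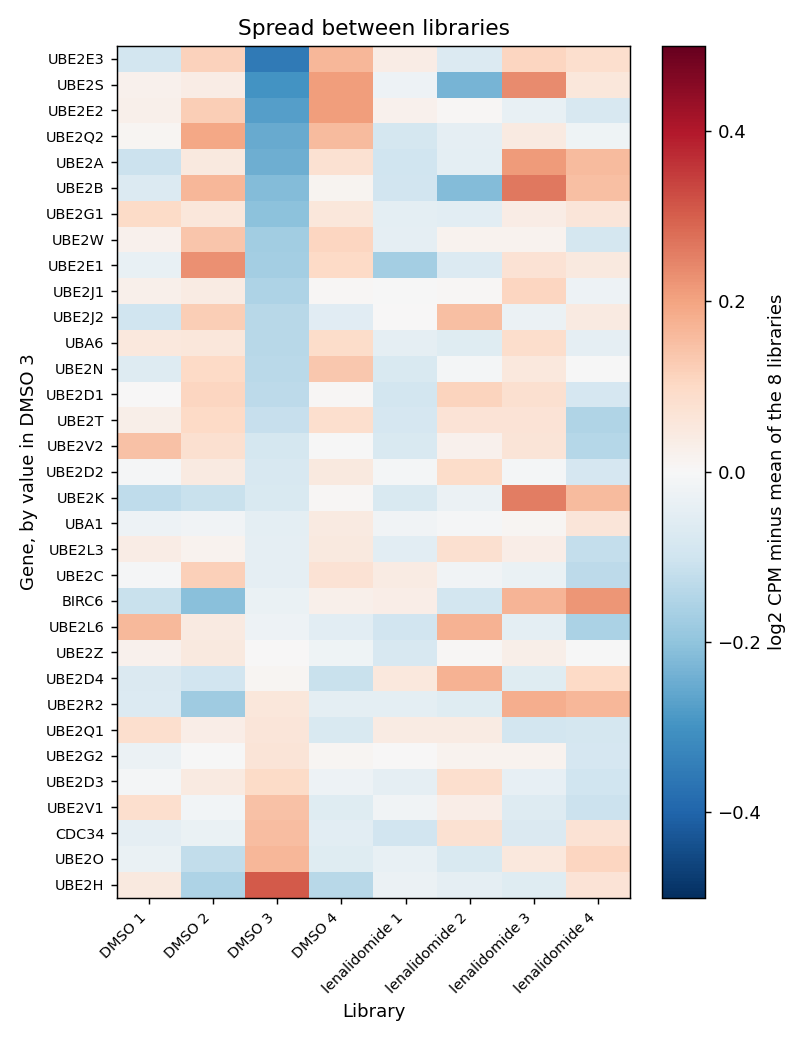
Log2 CPM of the 33 genes in each of the 8 libraries, minus the mean of the gene over all 8, in colour from blue (lower) to red (higher) and ordered by the value in DMSO replicate 3. That column runs from UBE2E3, UBE2S and UBE2E2 at the top, its lowest, to UBE2H at the bottom, its highest.

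The genes around these enzymes were examined in the same fit. UBB, a polyubiquitin gene that supplies ubiquitin itself, did not pass the adjusted threshold. It was at 564.4 ± 63.6 CPM without and 504.4 ± 50.2 CPM with the drug (mean ± SD of 4 libraries). The log2 fold change of UBB was -0.16, with an exact permutation p of 0.229. Of 14 E1 and E2 enzymes of ubiquitin-like proteins, 0 passed, with a median of -0.039 and UBA3, the catalytic subunit of the NEDD8 E1, at -0.095. UBA7, the E1 of ISG15, lay at the upper end of that list at 0.54, but its level was very low. UBA7 averaged 0.242 CPM without and 0.355 CPM with the drug, from 79 counts in all libraries together. The 95% interval of its log2 fold change was -0.32 to 1.39, with an unadjusted p of 0.198 by edgeR's test. Of the 4 other genes with an E2 fold that could be tested out of 7, 0 passed, with a median of -0.051 and TSG101 at -0.062.

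Of the 7 genes listed for the CRL4-CRBN ligase, 0 passed the adjusted threshold, with a median log2 fold change of -0.043. RBX1, the RING subunit that binds the E2, had the smallest p, at 23.2 ± 2.22 CPM without and 20.4 ± 1.14 CPM with the drug (mean ± SD of 4 libraries). Its log2 fold change was -0.19 (95% interval -0.35 to -0.024, adjusted p = 0.999 by edgeR's test, exact permutation p = 0.0857). Of 30 E3 ligases and partners that work with these E2 enzymes, 0 passed, with a median of -0.0079, and SHPRH, a ligase that uses UBE2N, had the smallest p at a log2 fold change of 0.19 (adjusted p = 0.999 by edgeR's test).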

How the data were processed

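Total RNA was measured in 8 libraries, 4 with DMSO and 4 with lenalidomide, grouped by their titles. Per the study's methods, the authors aligned ScriptSeq v2 libraries to hg19 with QuasR at default settings and deposited raw counts per gene of the UCSC known genes, with exonic widths and without normalization. bcl2fastq 2.17 stands in the submitters' processing notes. Strand use and the QuasR version are not given in the sources used here. No per-sample column lacked a sample.

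Counts were tested in R 4.3.3 with edgeR 4.0.16 (filterByExpr with minimum count 10 and minimum total 15, 13925 genes, TMM, glmQLFit and glmQLFTest) and adjusted by Benjamini-Hochberg over all genes at 0.05. Log2 ratios within 15 pairs used counts plus 0.5 and exact permutation or sign-flip tests, adjusted over the pairs. DESeq2 1.42.0, RLE scaling, the likelihood ratio test, filters, a replicate block, another gene length and leaving out each library were alternatives. Tests were tried on simulated data. Coding sequences and positions came from GENCODE 44 lifted to GRCh37, the build of the alignment, and were aligned with Biopython 1.88. The 33 genes and the lists were chosen with earlier results of these data known. Full values were given for the E1 enzymes, UBE2D3, UBE2G1, UBE2C, UBE2S and UBE2T, the 5 smallest p, the 3 highest and lowest levels and pairs at the smallest exact p, UBE2E3 and UBE2H being named after their values were seen. Totals of 28218471 to 37473413 counts set the precision, and PCR duplicates could not be told apart. Some genes of the related lists are not reported here.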

Additional observations from a re-analysis of the deposited data

Results flagged for a closer look

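CPM values of the 33 genes were looked at in both treatments, 66 groups of 4 libraries, and in 4 groups a single library lay well away from the rest. By chance about 1 in 20 groups, or 3.3, would show this. DMSO replicate 3 gave UBE2G1 a value of 99.6 CPM, while its other DMSO libraries lay between 119.3 and 122.7 CPM. The same library gave CDC34 its highest value, 73.2 CPM, with the others between 63.3 and 64.2 CPM. For UBA6 the library apart was lenalidomide replicate 3 with 229.5 CPM, and the remaining lenalidomide libraries lay between 207.2 and 209.3 CPM. For UBE2G2 it was lenalidomide replicate 4 with 89.1 CPM, the remaining ones lying between 94.7 and 95.8 CPM.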

How the results depend on the processing

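The number of the 33 genes past an adjusted p of 0.05 was 0, and so was that of the related lists, in every alternative run for each. It was also 0 for the ratios of the 15 pairs, but a single pair at the smallest exact p cannot pass over 15 pairs, so this says nothing about stability. The number of all genes past it, 2, became 12 by edgeR's likelihood ratio test and 9 by DESeq2. It was 6 when replicate numbers entered as a block, 4 when all genes with a count were kept, and 1 to 2 when any library was dropped. The cause was not tested. Deviations of same-numbered libraries correlated at 0.028, -0.024, 0.031 and 0.27 for replicates 1 to 4. Those of differently numbered libraries lay between -0.29 and 0.17, so that the value of replicate 4 was above all of them. The libraries may share no more than a number, and these values cannot tell whether they share more. With the block, 3 of the 33 genes had an unadjusted p under 0.05 in place of 2, while the number over all 13925 genes went from 582 to 762, and the median log2 fold change of the 33 was -0.018. That median ran from -0.033 to 0.0052 with each library left out.

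With 1 library left out, the values that changed sign were close to 0. Log2 fold changes ran from -0.073 to 0.022 for UBE2G1, from -0.077 to 0.091 for UBE2S and from -0.15 to 0.0087 for UBE2E2. Changes of a log2 ratio ran from -0.0057 to 0.091 for UBE2D1/UBE2D3, from -0.0025 to 0.081 for UBE2D2/UBE2D3, from -0.065 to 0.067 for UBE2G1/UBE2G2, from -0.00061 to 0.076 for UBE2L3/UBE2L6, from -0.073 to 0.11 for UBE2Q1/UBE2Q2, from -0.044 to 0.066 for UBE2V1/UBE2V2 and from -0.041 to 0.10 for UBE2G1/UBE2D3. That of UBE2D4/UBE2D3 stayed between 0.15 and 0.22. With sign flips over the 4 same-numbered libraries, the replicate block for ratios, 0 pairs passed, as that test allows no p under 0.05.

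Levels depended on length. With the longest annotated transcript, the log2 level ratio of UBE2C to UBE2S went from -0.74 to 1.17 and that of UBE2G1 to UBE2G2 from 0.013 to -0.028, and the latter ran from -0.0078 to 0.052 with each library left out. The number of pairs parted in level was 14 throughout. The share of UBE2D3 in the summed E2 level, 12.1%, was 10.4% with the longest transcript and 13.3% without division by length.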
